A study of Mus musculus with 4 samples.

Results

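Matrix metalloproteinases and their tissue inhibitors, the TIMPs, were examined in MC38 tumor cells as a set of 10 genes, 7 proteases (Mmp2, Mmp9, Mmp12, Mmp13, Mmp14, Mmp16 and Mmp19) and 3 inhibitors (Timp1, Timp2 and Timp3), of 53379 genes counted. The genes were taken by symbol from a list chosen by their CPM in these 4 libraries and the responder to non-responder difference in it, so those differences are given as a description and no test is attached to them. All 10 passed the filter on low counts, as did 13792 genes in all. MC38 is a colon adenocarcinoma line of the C57BL/6 mouse, used here as cells carrying GFP. In each C57BL/6 host, 50000 cells were placed under the skin below the right shoulder, and every mouse received anti-PD-1, an antibody that blocks an inhibitory receptor of T cells, at a sub-optimal dose of 100 µg on day 12, day 15, day 18 and day 22. Cancer cells sorted from tumors labelled responder (2 libraries) or non-responder (2 libraries) were sequenced in bulk as polyadenylated RNA. No untreated tumors are among these libraries, the labels do not say how response was scored, nor whether libraries that share a label are from different mice, so their spread may be technical.

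Metalloproteinases are zinc-dependent enzymes that cleave collagens, gelatin, elastin and other matrix proteins, and also growth factors, cytokines and receptors at the cell surface. Most are made as inactive proenzymes, and their activity is held in check by TIMPs, which bind the active site of the enzyme in a tight complex. TIMP2 has a further role, since it bridges the membrane-anchored MMP14 to the proenzyme of MMP2 and so takes part in its activation. In tumors, both malignant cells and the stromal and myeloid cells of the host are known sources of these proteases.

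Total counts were 20458601 and 18447041 in responder replicates 1 and 2, and 21754063 and 21670040 in non-responder replicates 1 and 2. Levels are given as counts per 1000000 counts of a library (CPM), scaled between libraries by TMM, for 1 gene across libraries, and as TPM, which also divides by exon length, where genes are compared with each other. Fold changes are responder over non-responder from edgeR's quasi-likelihood fit over all 13792 genes, with its standard error (SE). In that fit 0 genes passed an adjusted p of 0.05, which is 0% of those tested. The count at an unadjusted p under 0.05 was 856, DESeq2 called 62 and limma-voom called 0. Fits with a library left out set 1 library against 2, so only effect sizes are taken from them.

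Per length, Timp2 was the most abundant of the 10 transcripts, with a mean of 884 TPM over the 4 libraries. It was followed by Mmp2 (482 TPM), Mmp14 (456 TPM), Mmp9 (315 TPM) and Timp1 (150 TPM). Mmp16 (16.4 TPM) and Mmp19 (11.0 TPM) were far lower, and Mmp13 (2.01 TPM), Mmp12 (1.88 TPM) and Timp3 (1.78 TPM) were the scarcest. The library ranges of Timp2 and Mmp2, of Mmp9 and Timp1, of Timp1 and Mmp16, and of Mmp19 and Mmp13 did not overlap. Those of Mmp2 and Mmp14, Mmp14 and Mmp9, Mmp16 and Mmp19, Mmp13 and Mmp12, and Mmp12 and Timp3 did overlap, so these neighbours cannot be ordered.

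All 7 proteases had a lower fitted level in responder tumor cells, at a median log2 fold change of -0.82, beside a median of -0.01 over all genes tested, 51.1% of which had a lower fitted level. For 6 of them, all but Mmp14, both responder libraries lay below both non-responder libraries. Over all genes tested, 17.7% had responder libraries wholly below and 18.8% wholly above. Since the list was drawn up with this contrast known, nothing is read from the difference between the members and that background. The inhibitors did not share the pattern: Timp1 and Timp2 differed little, and Timp3 was higher in responder libraries, mainly through 1 library.

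**Figure D1:**
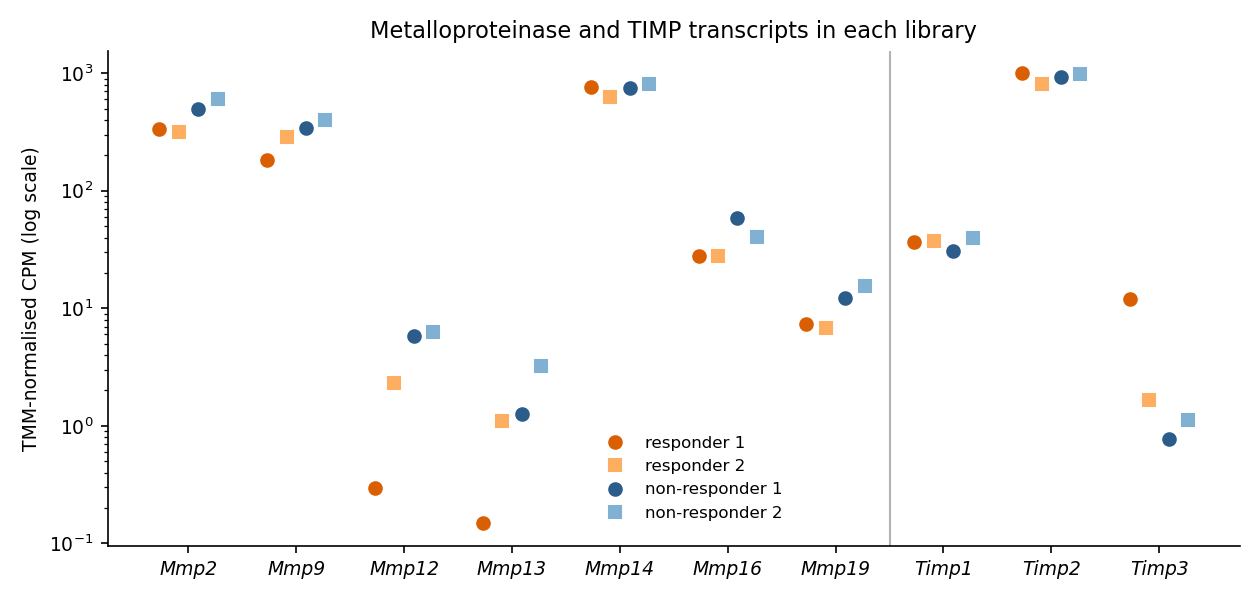
TMM-normalised CPM (log scale) of the 7 proteases (left of the line) and 3 inhibitors (right) in each library, with responder libraries in orange and non-responder libraries in blue. The orange points lie below the blue ones for each protease other than Mmp14, while Timp1 and Timp2 overlap and Timp3 stands out at 12.0 CPM in responder replicate 1.

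The gelatinases cleave denatured collagen and basement membrane collagen. Mmp2 (ENSMUSG00000031740, mm10 chromosome 8 from 92827291 to 92853420) had 336 and 317 CPM in responder replicates 1 and 2, against 497 and 605 CPM in non-responder replicates 1 and 2. Both responder libraries lay below both non-responder libraries and close to each other, and Mmp2 was 1.69-fold lower (log2 fold change -0.75, SE 0.20). Leaving out any 1 library kept the log2 fold change between -0.885 and -0.607.

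Mmp9, the other gelatinase (ENSMUSG00000017737, chromosome 2 from 164940780 to 164955850), had 183 and 289 CPM in responder replicates 1 and 2, against 341 and 396 CPM in non-responder replicates 1 and 2. Responder replicate 1 was the lowest library, and responder replicate 2 lay nearer to the non-responder libraries. The difference was 1.56-fold (log2 fold change -0.64, SE 0.25), and its log2 value was -0.35 when responder replicate 1 was left out and -1.005 when responder replicate 2 was. Mmp9 was abundant in all 4 libraries. Neutrophils are a well-known source of MMP9, and the 7 neutrophil markers summed to 0.15 and 0.37 CPM in responder libraries and 0.63 and 1.39 CPM in non-responder libraries, with Ly6g and Camp at 0 reads in all 4. The part of neutrophils in the level of Mmp9 was not tested.

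Mmp12, macrophage elastase, and Mmp13, an interstitial collagenase, lie next to each other on chromosome 9 and were both scarce. Mmp12 (ENSMUSG00000049723, 7344381 to 7369499) had 6 and 44 reads in responder replicates 1 and 2, against 120 and 141 reads in non-responder replicates 1 and 2. In CPM this was 0.30 and 2.30 against 5.80 and 6.32, with both responder libraries lower and responder replicate 1 lowest by far. The fitted difference was 4.67-fold (log2 fold change -2.22, SE 0.83), and its log2 value was -1.40 when responder replicate 1 was left out and -4.32 when responder replicate 2 was.

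Mmp13 (ENSMUSG00000050578, 7272514 to 7283331) had 3 and 21 reads in responder replicates 1 and 2, against 26 and 72 reads in non-responder replicates 1 and 2, or 0.15 and 1.10 CPM against 1.26 and 3.23 CPM. Responder replicate 2 and non-responder replicate 1 were close together, and the ranking of the libraries was that of Mmp12. The fitted difference was 3.60-fold (log2 fold change -1.85, SE 0.88). Without responder replicate 1 the log2 fold change was -1.02, and without responder replicate 2 it was -3.86.

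Like both genes, 9 of 10 macrophage and monocyte markers were lowest in responder replicate 1 and highest in non-responder replicate 2. The 10 markers, among them Csf1r, C1qa and Lyz2, summed to 13.2 and 81.0 CPM in responder replicates 1 and 2, against 82.8 and 227 CPM in non-responder replicates 1 and 2. None of the 10 was at 0 reads in any library, and -1.95 was their median log2 fold change. Cd68 was the exception, at 9.47 and 9.21 CPM in responder libraries and 9.13 and 10.0 CPM in non-responder libraries, a log2 fold change of -0.03 (SE 0.24), and it alone made up 71.8% of the sum in responder replicate 1. Set against the full sum, Mmp13 stood at 1.13% and 1.36% in responder libraries, beside 1.52% and 1.42% in non-responder libraries. Mmp12 stood at 2.26% and 2.84% in responder libraries, beside 6.997% and 2.78% in non-responder libraries. With Cd68 left out, an alternative chosen after seeing the data, the 9 other markers summed to 3.72 and 71.8 CPM in responder libraries and 73.7 and 217 CPM in non-responder libraries. Mmp13 then stood at 4.0% and 1.53% in responder libraries, beside 1.704% and 1.49% in non-responder libraries, and Mmp12 at 8.0% and 3.21% in responder libraries, beside 7.86% and 2.91% in non-responder libraries. Neither quotient separated the groups on that sum, where responder replicate 1 rests on 6 reads of Mmp12 and 3 reads of Mmp13. On the full sum Mmp13 was lower in both responder libraries, while the groups overlapped for Mmp12. Leaving out Cd68 turned the log2 difference of the quotient from -0.25 to 0.64 for Mmp13 and from -0.80 to 0.08 for Mmp12. Ptprc, which encodes the leukocyte marker CD45, had 0.64 and 6.91 CPM in responder libraries and 5.94 and 22.6 CPM in non-responder libraries. The part of macrophage RNA in the differences of Mmp12 and Mmp13 was not tested. In bulk RNA, fewer cells of a type and less RNA per cell cannot be told apart.

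**Figure D2:**
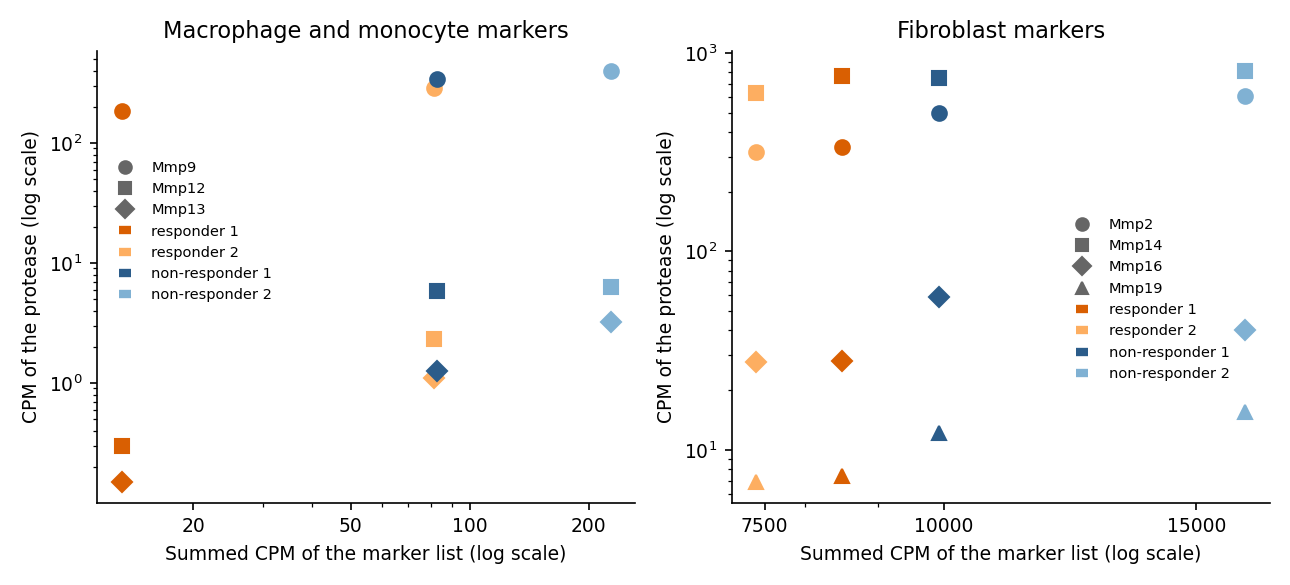
CPM of proteases (log scale) against the summed CPM of macrophage and monocyte markers (left) or fibroblast markers (right), 1 point per gene and library, responder libraries in orange and non-responder libraries in blue. Mmp13 spans 0.15 to 3.23 CPM and Mmp9 183 to 396 CPM over marker sums of 13.2 to 227 CPM, of which Cd68 alone is 71.8% in responder replicate 1.

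Mmp12 and Mmp13 belong to a cluster of 10 metalloproteinase genes between 7272514 and 7699585 on chromosome 9 (mm10). They were the only genes of the cluster to pass the low-count filter. Mmp1b, Mmp1a, Mmp20 and Mmp7 had 0 reads in all 4 libraries, which allows up to 3 reads, or at most 0.14 to 0.16 CPM per library before scaling. Mmp3, a stromelysin, had 3 and 1 reads in responder libraries and 2 and 1 in non-responder libraries, and Mmp10, another stromelysin, had 5 and 5 against 13 and 3. Mmp8, the neutrophil collagenase, had 0 and 0 reads in responder libraries and 2 and 5 in non-responder libraries. Mmp27 had 1 and 0 reads against 0 and 3.

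**Figure D3:**
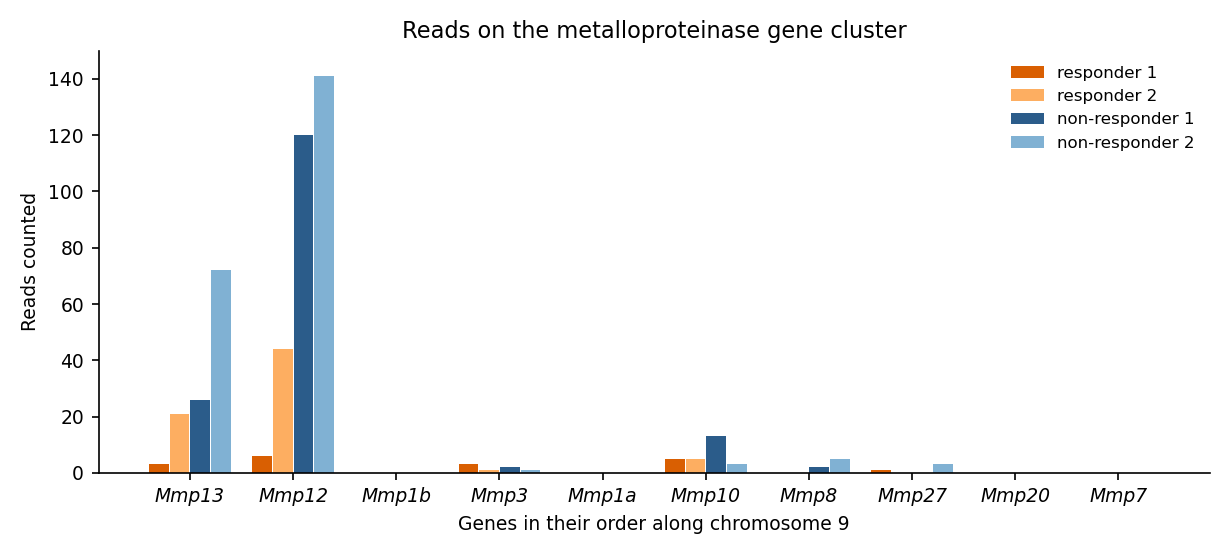
Reads counted on each of the 10 genes of the chromosome 9 cluster, in their order along the chromosome, with responder libraries in orange and non-responder libraries in blue. Mmp12 reaches 141 reads and Mmp13 reaches 72, whereas no other gene of the cluster exceeds 13 reads in any library.

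The promoters of this cluster are shown because they share a textbook feature, a site for AP-1, the FOS and JUN dimer that is known to act on collagenase and stromelysin genes. RefSeq promoter windows (build GRCm38.p6, 250 bases before to 50 after the start) were held for 22 of the 27 Mmp and Timp genes, 6 of them members. The letters TGANTCA, which read the same on both strands, were found in 8 of the 12 cluster promoters and so for 8 of the 10 genes. They were found in 0 of the 13 promoters of the other family genes, and in 7.81% of all 32851 promoters. The search took exact letters only, so a near match such as TGAGTAA, which the Timp1 window holds, was not counted. The members Mmp2, Mmp9, Mmp16 and Mmp19 had no window. The stretches around the site are printed below 5′ to 3′ on the strand of each gene, with the match in capitals.
Mmp13: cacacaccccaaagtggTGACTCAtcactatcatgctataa
Mmp12: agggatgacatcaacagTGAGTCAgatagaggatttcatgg
Mmp3: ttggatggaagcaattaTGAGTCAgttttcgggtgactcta
Mmp10: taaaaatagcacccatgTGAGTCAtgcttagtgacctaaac
Mmp1a: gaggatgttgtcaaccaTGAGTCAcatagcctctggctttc
Mmp1b: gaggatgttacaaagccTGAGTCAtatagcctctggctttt
Mmp20: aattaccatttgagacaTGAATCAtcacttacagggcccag
Mmp7: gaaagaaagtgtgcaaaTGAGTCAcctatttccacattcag
The match was TGAGTCA in 6 of the 8 genes, TGACTCA in Mmp13 and TGAATCA in Mmp20. Of the 8 genes, 4 had no reads at all and only Mmp12 and Mmp13 passed the filter, so the match alone did not separate genes with reads from genes without. For Mmp12 the match lay in the window of the second of its starts in the table, at 7347124 to 7347423. The whole Mmp13 window, chr9:7272264-7272563 on the plus strand, is shown with the AP-1 letters and a downstream TATAAA in capitals.
Mmp13: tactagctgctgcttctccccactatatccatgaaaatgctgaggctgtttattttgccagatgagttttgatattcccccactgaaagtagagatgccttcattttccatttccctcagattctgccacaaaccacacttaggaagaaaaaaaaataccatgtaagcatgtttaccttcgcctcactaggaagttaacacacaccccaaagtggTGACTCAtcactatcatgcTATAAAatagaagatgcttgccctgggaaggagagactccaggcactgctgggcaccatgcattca
TATAAA was found on either strand in 13.6% of all promoters.

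Transcripts of AP-1 subunits were abundant in the same libraries. Fos had 240 and 607 CPM in responder replicates 1 and 2, against 213 and 203 CPM in non-responder replicates 1 and 2, with responder replicate 2 alone far above the rest (log2 fold change 1.03, SE 0.44, edgeR adjusted p = 0.796). Junb averaged 170 ± 38.5 CPM in responder and 113 ± 23.4 CPM in non-responder libraries (SD, n = 2 each; edgeR adjusted p = 0.766). The list held 10 genes, those of AP-1 subunits and Ets1, Ets2 and Runx2, which do not encode AP-1 subunits. In edgeR's test over all genes 0 of them passed. At an unadjusted edgeR p under 0.05, 1 was higher and 0 lower, beside 2.57% and 3.63% over all genes. In fitted level 8 were higher and 2 lower, at a median log2 fold change of 0.44. Without responder replicate 2 that median was 0.155. Fosb and Jun were also highest in responder replicate 2, at 700 and 1104 CPM. The part of AP-1 in the levels of these proteases was not tested. Fosl1 averaged 248 ± 24.3 CPM in responder and 187 ± 47.7 CPM in non-responder libraries, and Ets1 had 327 and 288 CPM against 364 and 293 CPM.

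The membrane-type enzymes sit in the plasma membrane and cleave matrix around the cell. Mmp14, which encodes MT1-MMP, the main collagenase of the cell surface and activator of MMP2 (ENSMUSG00000000957, chromosome 14 from 54431612 to 54445364), had 765 and 626 CPM in responder replicates 1 and 2, against 744 and 809 CPM in non-responder replicates 1 and 2. The groups overlapped, and the difference was smaller than its error (log2 fold change -0.16, SE 0.21). The log2 value was -0.02 when responder replicate 2 was left out and -0.31 when responder replicate 1 was.

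Mmp16, which encodes a second membrane-type enzyme, MT3-MMP (ENSMUSG00000028226, chromosome 4 from 17852893 to 18119145), behaved otherwise. It had 28.1 and 27.7 CPM in responder replicates 1 and 2, against 58.6 and 40.2 CPM in non-responder replicates 1 and 2. The responder libraries were nearly equal and both lower, and the difference was 1.77-fold (log2 fold change -0.82, SE 0.21). It was -0.52 without non-responder replicate 1, the highest library.

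Mmp19, a secreted enzyme that cleaves basement membrane components (ENSMUSG00000025355, chromosome 10 from 128790910 to 128800824), had 7.34 and 6.86 CPM in responder replicates 1 and 2, against 12.1 and 15.5 CPM in non-responder replicates 1 and 2. The groups were well apart, at 1.95-fold (log2 fold change -0.96, SE 0.25), and the log2 fold change stayed between -1.12 and -0.77 with any 1 library left out. Its exons overlap those of Tmem198b on the opposite strand, from which strand-specific counting separates it.

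**Figure D4:**
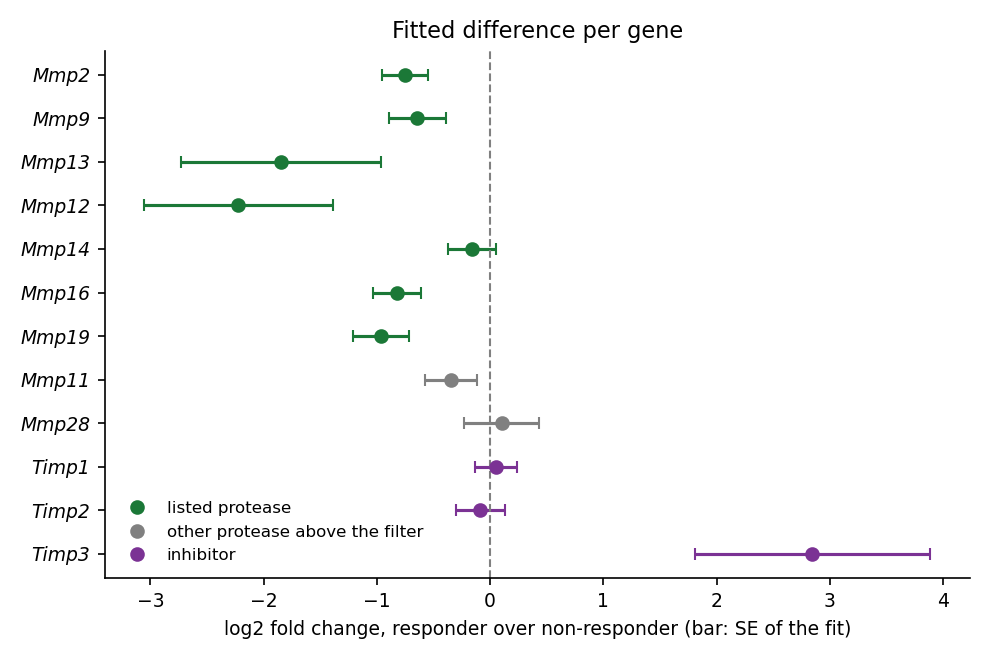
Log2 fold change, responder over non-responder, with the SE of the fit as bars, for the 7 listed proteases (green), the other 2 proteases that passed the low-count filter (grey) and the 3 inhibitors (purple). Mmp2, Mmp9, Mmp16 and Mmp19 lie between -0.96 and -0.64 with short bars, Mmp12, Mmp13 and Timp3 have long bars, and Mmp14, Timp1 and Timp2 lie near 0.

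Among the inhibitors, Timp2 (ENSMUSG00000017466, chromosome 11 from 118301069 to 118355740) was the most abundant, with 999 and 811 CPM in responder replicates 1 and 2, against 931 and 990 CPM in non-responder replicates 1 and 2. The groups overlapped (log2 fold change -0.09, SE 0.22), and the sign turned to 0.06 without responder replicate 2. Timp1, a secreted inhibitor that binds the MMP9 proenzyme (ENSMUSG00000001131, chromosome X from 20870166 to 20874735), had 36.4 and 37.2 CPM in responder libraries, against 31.0 and 40.0 CPM in non-responder libraries. The responder libraries lay between the non-responder ones (log2 fold change 0.05, SE 0.19), and the sign turned to -0.11 without non-responder replicate 1.

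Timp3 encodes a matrix-bound inhibitor that also acts on ADAM proteases (ENSMUSG00000020044, chromosome 10 from 86300372 to 86349506). It had 243 and 32 reads in responder replicates 1 and 2, against 16 and 25 reads in non-responder replicates 1 and 2, or 12.0 and 1.68 CPM against 0.77 and 1.12 CPM. Responder replicate 1 stood alone, and the other 3 libraries were all low. The fitted log2 fold change of 2.85 (SE 1.04) was 0.81 without responder replicate 1. Its exons overlap those of Syn3 on the opposite strand.

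The library pattern of Mmp14 was closest to that of Timp2, its partner in MMP2 activation. As the Euclidean distance between log2 CPM values centred on each gene's mean over the 4 libraries, Mmp14 and Timp2 were 0.076 apart, the smallest of all pairs of members. Mmp2 and Mmp19 came next at 0.19. The log2 CPM of Mmp14 and Timp2 spanned only 0.37 and 0.30 over the libraries, and genes that vary little lie close by this distance. Promoter windows of Mmp14 (chr14:54431348-54431647, plus strand) and Timp2 (chr11:118355362-118355661, minus strand) are printed 5′ to 3′ because theirs was the smallest distance. Capitals mark the GC box letters GGGCGG on either strand, which 35.7% of all promoters hold.
Mmp14: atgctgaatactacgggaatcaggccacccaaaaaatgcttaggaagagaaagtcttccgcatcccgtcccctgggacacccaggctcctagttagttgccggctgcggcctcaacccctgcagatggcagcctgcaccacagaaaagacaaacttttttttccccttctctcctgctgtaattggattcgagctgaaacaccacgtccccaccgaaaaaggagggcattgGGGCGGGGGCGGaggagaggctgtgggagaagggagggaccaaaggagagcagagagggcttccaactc
Timp2: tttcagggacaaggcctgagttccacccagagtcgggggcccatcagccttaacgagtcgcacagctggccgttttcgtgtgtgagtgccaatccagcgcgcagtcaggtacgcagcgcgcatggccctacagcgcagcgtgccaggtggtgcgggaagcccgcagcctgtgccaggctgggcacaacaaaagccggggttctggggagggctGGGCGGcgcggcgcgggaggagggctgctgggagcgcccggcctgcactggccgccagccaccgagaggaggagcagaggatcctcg
Neither window held the AP-1 or TATA letters. The Timp2 window had 68.7% G or C and 25 CpG dinucleotides, and the Mmp14 window 56.0% and 10, beside medians of 52.7% and 7 over all promoters and 43.7% and 1 in the Mmp13 window. A match of letters is a description and shows no binding.

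The balance of proteases to inhibitors was taken as the summed TPM of the 7 proteases over that of the 3 inhibitors within each library, a ratio that scaling between libraries does not touch. It was 0.95 and 1.14 in responder replicates 1 and 2, against 1.39 and 1.46 in non-responder replicates 1 and 2. Both responder libraries lay below both non-responder libraries, with means of 1.05 ± 0.13 and 1.43 ± 0.05 (SD, n = 2 each), a difference of -0.45 on the log2 scale or 1.36-fold. The protease pool averaged 1050 ± 15.5 TPM in responder and 1518 ± 245 TPM in non-responder libraries. The inhibitor pool averaged 1010 ± 144 TPM in responder and 1062 ± 132 TPM in non-responder libraries, a smaller gap than its spread.

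The make-up of the protease pool differed as well. Mmp14 made up 45.0% and 36.7% of protease TPM in responder libraries, against 32.9% and 31.0% in non-responder libraries. Mmp2 made up 35.0% and 32.8% in responder libraries, against 38.8% and 41.0% in non-responder libraries, so that Mmp14 led the pool in both responder libraries and Mmp2 in both non-responder libraries. Mmp9 made up 18.1% and 28.5% in responder libraries and 25.3% and 25.5% in non-responder libraries, without order between the groups. The other 4 proteases never reached 2% of the pool each. Among inhibitors Timp2 held 83.2% to 87.2% of TPM in all libraries.

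**Figure D5:**
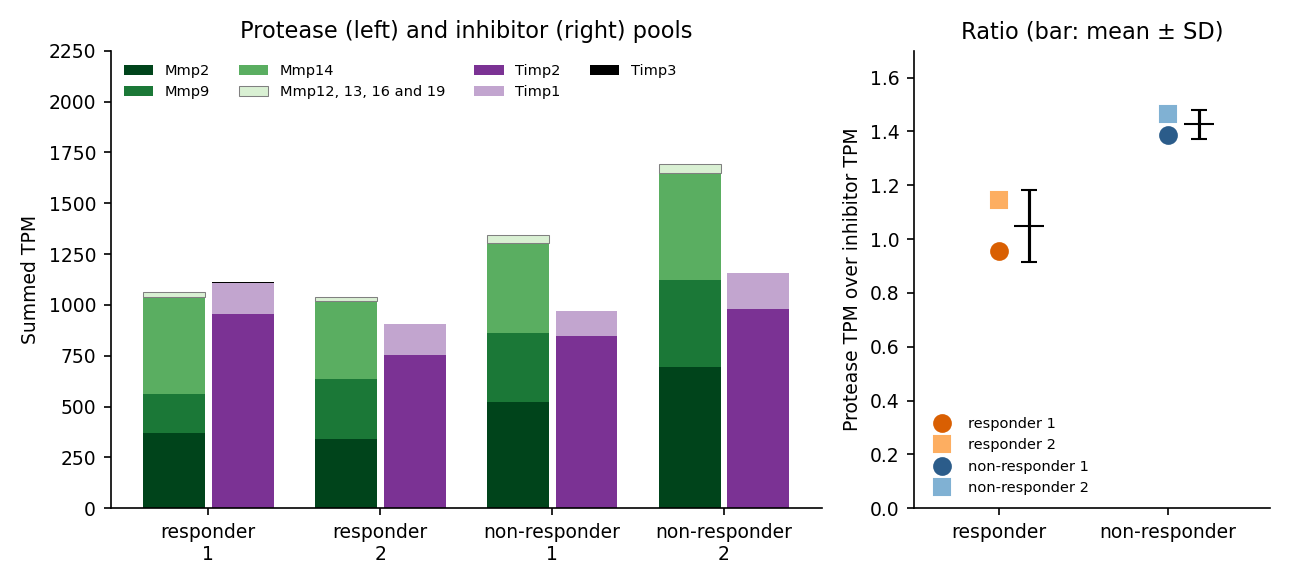
Left, summed TPM of the proteases (green bars) and inhibitors (purple bars) in each library, stacked by gene. Right, protease TPM over inhibitor TPM per library with the mean ± SD of each group; the responder libraries are at 0.95 and 1.14 and the non-responder libraries at 1.39 and 1.46.

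Ratios of single proteases to single inhibitors differed in size. The TPM ratio of Mmp2 to Timp2 was 0.39 and 0.45 in responder libraries, against 0.62 and 0.71 in non-responder libraries. That of Mmp9 to Timp1 was 1.26 and 1.95 in responder libraries, against 2.76 and 2.48 in non-responder libraries, and that of Mmp19 to Timp1 was 0.051 and 0.046 against 0.098 and 0.097. Mmp14 to Timp2 was nearly constant, at 0.501 and 0.505 in responder libraries and 0.523 and 0.534 in non-responder libraries. The log2 difference of that last ratio was -0.07, against -0.66 for Mmp2 to Timp2, -0.74 for Mmp9 to Timp1 and -1.01 for Mmp19 to Timp1. For the remaining pairs it was -0.70 (Mmp16 to Timp2), -2.38 (Mmp13 to Timp1), -2.93 (Mmp12 to Timp1) and -2.44 (Mmp14 to Timp3). Mmp12, Mmp13 and Timp3 had few reads. In every pair, Mmp14 to Timp2 included, both responder libraries lay below both non-responder libraries.

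Fibroblasts are a further known source of Mmp2, Mmp14 and TIMPs. Fitted levels of fibroblast markers, like those of the proteases, were lower in responder libraries, though Mmp14 itself differed little. The 9 markers summed to 8489 and 7403 CPM in responder replicates 1 and 2, against 9919 and 16222 CPM in non-responder replicates 1 and 2, most of it Col3a1 (6897 and 5792 against 7598 and 13391 CPM). All 9 had a lower fitted level in responder libraries, with -1.25 as their median log2 fold change, 8 of them without overlap of the groups. Over all genes tested, 51.1% had a lower fitted level and 17.7% had responder libraries wholly below. The markers, like the members, were listed with earlier results known, so nothing is read from their difference to that background. No fibroblast marker was at 0 reads in any library. Mmp2 stood at 3.96% and 4.28% of that sum in responder libraries and 5.01% and 3.73% in non-responder libraries, so the groups overlapped on this scale. Mmp16 overlapped too, at 0.33% and 0.37% against 0.59% and 0.25%. Mmp19 stood at 0.086% and 0.093% against 0.122% and 0.096%, lower in both responder libraries. Mmp14 stood at 9.01% and 8.46% against 7.51% and 4.99%, higher in both responder libraries. Timp2, at 11.8% and 11.0% against 9.38% and 6.10%, and Timp3, at 0.142% and 0.023% against 0.008% and 0.007%, were also higher in both. The part of host fibroblasts in the differences was not tested, and the level of these genes in MC38 cells alone is not known from these libraries. Of the epithelial markers Epcam, Krt8, Krt18, Krt19 and Cdh1, only Cdh1 passed the low-count filter, and the summed level of the 5 was 2.28 and 1.78 CPM in responder and 0.68 and 3.005 CPM in non-responder libraries, although the line is labelled an adenocarcinoma. The endothelial marker Pecam1 had 6.34 and 11.6 CPM in responder and 17.8 and 25.5 CPM in non-responder libraries, with the 4 endothelial markers at 12.4 and 15.3 against 23.9 and 27.8 CPM in sum. The endothelial marker Cdh5 went the other way in its fitted level, with 5.95 and 3.51 CPM in responder and 5.51 and 2.15 CPM in non-responder libraries (log2 fold change 0.31, SE 0.50), and its groups overlapped.

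Genes elsewhere with the most similar profile over the 4 libraries, by the same distance among 8813 named genes of at least 10 CPM, differed by member. Mmp12 was nearest to Apoe (0.78), Lyz2 (1.20) and Lcp1 (1.31), and Mmp13 to Mpeg1 (0.58), Apoe (0.75) and Pecam1 (0.89). Mmp9 was nearest to Nr2f1 (0.19), Bcl2l11 (0.20) and Col18a1 (0.21), and Mmp16 to Sema7a (0.056), Nptx1 (0.064) and Slc25a23 (0.076). Mmp19 was nearest to Mmp2 (0.19), Hic1 (0.21) and Cotl1 (0.23). Timp3 had no close match, the nearest being Pla1a at 1.63, Il1rl1 at 1.71 and AA467197 at 1.73. With 4 libraries such likeness is a description only.

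Of the 17 other Mmp and Timp genes, 2 passed the low-count filter. Mmp11, stromelysin-3, had 32.8 and 33.2 CPM in responder replicates 1 and 2, against 32.8 and 51.0 CPM in non-responder replicates 1 and 2, so only non-responder replicate 2 was high (log2 fold change -0.35, SE 0.23, edgeR adjusted p = 0.852). Mmp28, epilysin, had 11.9 and 8.69 CPM in responder libraries and 6.91 and 12.3 CPM in non-responder libraries (edgeR adjusted p = 0.969). Timp4 had 2 and 4 reads in responder libraries and 1 and 2 reads in non-responder libraries, so that Timp1, Timp2 and Timp3 held nearly all inhibitor reads.

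Activators, cofactors and further inhibitors of the system went both ways. Of 21 genes 13 were tested, 7 with a higher and 6 with a lower fitted level at a median log2 fold change of 0.11. Of these, 0 passed edgeR's test over all genes. At an unadjusted edgeR p under 0.05, 2 were higher and 2 lower, beside 2.57% and 3.63% over all genes. The median was -0.07 without non-responder replicate 1. Plau, the urokinase that activates plasminogen and through it several proenzymes, had 3 and 13 reads in responder libraries, against 74 and 89 in non-responder libraries. In CPM, Plau had 0.15 and 0.68 against 3.57 and 3.99 (log2 fold change -3.18, SE 0.63, edgeR adjusted p = 0.37). Its receptor gene Plaur went the other way, with 46.2 and 55.8 CPM in responder libraries against 31.4 and 27.6 CPM in non-responder libraries (1.73-fold, SE 0.18 on the log2 scale, edgeR adjusted p = 0.467).

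The abundant genes of that list differed less. Htra1, a secreted serine protease, had 970 and 889 CPM in responder libraries and 1065 and 979 CPM in non-responder libraries. Bsg, which encodes CD147, an inducer of metalloproteinases, had 583 and 483 CPM in responder libraries and 643 and 569 CPM in non-responder libraries. Cd44, the hyaluronan receptor that docks MMP9 and MMP14 at the cell surface, averaged 1211 ± 56.1 CPM in responder and 897 ± 94.5 CPM in non-responder libraries (SD, n = 2 each; edgeR adjusted p = 0.796). Reck, a membrane-anchored metalloproteinase inhibitor named here after its values were seen, had 19.3 and 14.7 CPM in responder libraries, against 25.0 and 28.7 CPM in non-responder libraries (edgeR adjusted p = 0.72).

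ADAM and ADAMTS proteases, relatives that TIMP3 and other TIMPs can also inhibit, had 16 of 21 genes tested. Of these, 4 had a higher and 12 a lower fitted level at a median log2 fold change of -0.22. In edgeR's test over all genes 0 passed. At an unadjusted edgeR p under 0.05, 0 were higher and 2 lower, beside 2.57% and 3.63% over all genes. Adamts12 had 154 and 99.7 CPM in responder libraries, against 250 and 183 CPM in non-responder libraries (log2 fold change -0.77, SE 0.26, edgeR adjusted p = 0.731). Adam19 had 111 and 146 CPM in responder libraries, against 204 and 169 CPM in non-responder libraries (edgeR adjusted p = 0.765), and Adamts5, an aggrecanase, had 25.2 and 19.1 CPM against 26.7 and 34.6 CPM (edgeR adjusted p = 0.796). Adam17, which encodes the main sheddase of the cell surface, had 377 and 288 CPM in responder and 408 and 361 CPM in non-responder libraries (edgeR adjusted p = 0.902), and Adam9 had 296 and 228 CPM against 304 and 309 CPM (edgeR adjusted p = 0.888).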

How the data were processed

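The authors deposited raw counts, 1 file per library, from featureCounts 1.6.1 with strand setting 2 on Ensembl release 91, per the file headers. STAR and mm10 (GRCm38) are named in the submitters' processing notes; its settings are not stated there. Groups and replicate numbers came from the titles. Multi-mapping reads were not requested. Symbols matched 53274 of 53379 identifiers, and a symbol on several identifiers went to the one with most reads.

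Genes were kept by filterByExpr (minimum count 10), scaled by TMM (factors 0.952 to 1.036) and fitted with edgeR 4.0.16 in R 4.3.3 (robust quasi-likelihood, group as the only term, Benjamini-Hochberg threshold 0.05; common biological coefficient of variation 0.216). The SE is the log2 fold change over the square root of F. TPM used the exon lengths in the files. DESeq2 1.42.0 and limma 3.58.1 (voom) served as alternatives. No libraries were near-identical (chi-square per degree of freedom 24.7 to 74.0).

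The members, the related lists and the cell type markers were chosen with earlier results of these data known. From each related list the 3 tested genes of highest mean CPM and the 3 of smallest p were named, and Reck and Timp4 in addition (1 gene that the rule takes is not reported here); the nearest genes were sought for members whose log2 CPM spanned more than 1, with 0.25 CPM added before logs. Counting error alone limits genes of few reads; 3 reads are the limit that a count of 0 allows.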

Additional observations from a re-analysis of the deposited data

How the results depend on the processing

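The count of genes past an adjusted p of 0.05 was 0 with edgeR under TMM, RLE and upper-quartile factors, library size alone and the filter of 5 CPM in 2 libraries, and 0 with limma-voom. It was 212 without the low-count filter, 62 with DESeq2, 41 to 516 with a library left out, and 856 at an unadjusted p under 0.05. With the replicate number as a block it was 32. Same-numbered libraries deviated together (r = 0.39 across genes, which are not independent), but with 2 numbers and no statement in the labels the pairing is not established. The causes were not tested.

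The 10 members kept their sign, within the spread of replicates, in all 78 values from other factors, tests, filters and the block; Mmp13 and Timp3 gave none under the 5 CPM filter. With a library left out, 32 of 40 values stayed within that spread, and Timp1 and Timp2 changed sign once each. The log2 difference in balance stayed between -0.58 and -0.32 with a library left out and was -0.37 with CPM in place of TPM, -0.41 without Mmp9 and Mmp12, and -0.45 with the block.

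Medians of log2 fold changes with a library left out ran from -0.35 to 0.29 for the other Mmp and Timp genes and -0.070 to 0.32 for activators and cofactors (0.044 without the low-count filter). They ran from -0.29 to -0.13 for ADAM and ADAMTS genes, and 0.155 to 0.65 for the list of AP-1, Ets and Runx2 genes. The filter was rerun in each fit, so the first range covers 3 or 4 genes in place of 2. Without the filter the activators and cofactors cover 20 genes in place of 13. With 2 libraries per group, genes of few reads, Mmp12, Mmp13, Timp3 and Plau among them, are the least precise.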
